A study of Mus musculus with 14 samples.

Results

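MicroRNAs that macrophages make when Toll-like receptors or NF-κB are activated were examined in the exosomes of adipose tissue macrophages (ATMs). They were taken by name as 10 precursor hairpins: mmu-mir-155, mmu-mir-146a, mmu-mir-146b, mmu-mir-147, mmu-mir-132, mmu-mir-212, mmu-mir-187, mmu-mir-9-1, mmu-mir-9-2 and mmu-mir-9-3. All 10 were found among the 539 hairpins of the authors' deposited table. The choice is by name and uses no measured value, though earlier results of these data were known when it was made.

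Toll-like receptors recognise microbial products and some host lipids, and their signal through MyD88, IRAK kinases and TRAF6 releases NF-κB to the nucleus. There NF-κB switches on cytokine genes together with a small set of microRNA (miRNA) genes, whose products then act on the same path. Among them miR-155 lowers the inhibitors SHIP1 and SOCS1 and so sustains inflammatory output, while miR-146a and miR-146b bind the messages of TRAF6 and IRAK1 and act as a brake. Obese fat tissue holds many macrophages with inflammatory gene expression, and exosomes, small vesicles that cells release, carry miRNAs from these cells to adipocytes and other targets.

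By the labels, 7 libraries hold exosomes of obese ATMs and 7 those of lean ATMs, all from C57BL/6 mice and of cells defined as CD11b+F4/80+. In both groups cells were cultured for 72 h in IMDM with 10% serum freed of exosomes, and vesicles were spun from the medium. The age labels read 24-26 to 24-32 weeks in obese libraries and 24-33 to 24-39 weeks in lean ones. The upper end moves by 1 week per library without a break from obese to lean, and the lower end is 24 in all. Such a run may come from how the labels were filled in, so the true ages are uncertain. If the labels hold, age and obesity cannot be told apart. The sources used here do not give how the mice became obese or whether each library is a separate animal, so p-values measure the spread between these libraries alone. Values are those of the authors' comparison for each hairpin, with none for a single library, so depth, the spread within a group and group means are unknown here. Rows are named for hairpins, so which arm, 5p or 3p, gave the reads is unknown.

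Mature sequences were taken from RefSeq (GRCm38.p6) for 9 of the 10 hairpins, and mir-187 was left out of this step. For mir-147 only the 5p arm was found, and it is not shown. The 6 below are the arms usually described as the active ones, written 5′ to 3′ with the seed, bases 2 to 8, in capitals, because the seed decides which messages a miRNA can bind and so which hairpins can act on the same messages.
miR-155-5p: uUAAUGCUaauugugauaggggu
miR-146a-5p: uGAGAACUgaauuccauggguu
miR-146b-5p: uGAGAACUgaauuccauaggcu
miR-132-3p: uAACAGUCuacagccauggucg
miR-212-3p: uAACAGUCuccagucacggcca
miR-9-5p: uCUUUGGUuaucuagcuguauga

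These 6 sequences carry 4 seeds. The pair miR-146a-5p and miR-146b-5p shares its seed and differs by G18A and U21C, counted from the 5′ end of miR-146a-5p, with 20 of 22 bases identical. The pair miR-132-3p and miR-212-3p also shares a seed, with 17 of 22 bases identical and the changes A10C, C14U, U17C, U20C and G22A, counted from the 5′ end of miR-132-3p. None of the 4 seeds was found in a mature sequence of another hairpin of the table, among the 481 rows that matched a RefSeq entry. Nor did any of the 6 sequences occur in a GENCODE M21 transcript other than its own hairpin or that hairpin's host RNA.

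Which of the 2 groups stands on top of the fold changes is not stated in the table. A published study of this material, whose values are not used here, found miR-155 raised in obese ATM exosomes, and mir-155 is positive in the table. Under that reading a positive value means a higher level in obese ATM exosomes, and signs are given below as positive or negative. The direction of mir-155 is then no finding, and the other directions are relative to it. More vesicles of a kind and more of a miRNA per vesicle cannot be told apart in bulk libraries.

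Of the 10 hairpins, mir-155 alone differed between obese and lean ATM exosomes at an adjusted p under 0.05 (limma with Benjamini-Hochberg adjustment over all hairpins, from the authors' deposited table). Of all 539 hairpins, 5.57% passed that threshold, and 2.04% did so with a positive value. The authors' deposited table puts its log2 fold change at 4.41 (adjusted p = 0.00205). From fold change and t, a standard error of 0.79 was recovered, and the 95% interval runs from 2.75 to 6.06, or from 6.73-fold to 66.8-fold around an estimate of 21.2-fold. Only mir-1945 had a larger positive value in the authors' deposited table, and among the 180 most abundant hairpins mir-155 had the largest.

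The precursor of miR-155 is shown with its mature arms in capitals, since the row is named for the hairpin and not for an arm. It lies at chr16:84714140-84714204 of GRCm38, plus strand, inside an exon of Mir155hg, a long noncoding RNA.
mir-155: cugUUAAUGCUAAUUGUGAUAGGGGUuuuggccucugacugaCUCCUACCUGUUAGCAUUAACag

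The hairpin mir-155 was abundant cargo, at rank 46 of 539 by mean log2 expression over both groups, with a value of 11.02 from the authors' deposited table. In the authors' deposited table the 2 hairpins next above it in mean expression, mir-26a-1 and mir-26a-2, had log2 fold changes of 0.48 and 0.50. The 2 next below it had 0.24 for mir-23a and 0.45 for mir-125b-2. None of these 4 passed the threshold in the authors' deposited table, where the smallest of their adjusted p-values (limma) was 0.630. By mean log2 expression mir-27a (11.10) lay nearer to mir-155 than mir-125b-2 (10.91) did. The authors' deposited table puts mir-27a at 1.80 (limma, adjusted p = 0.0740).

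**Figure D1:**
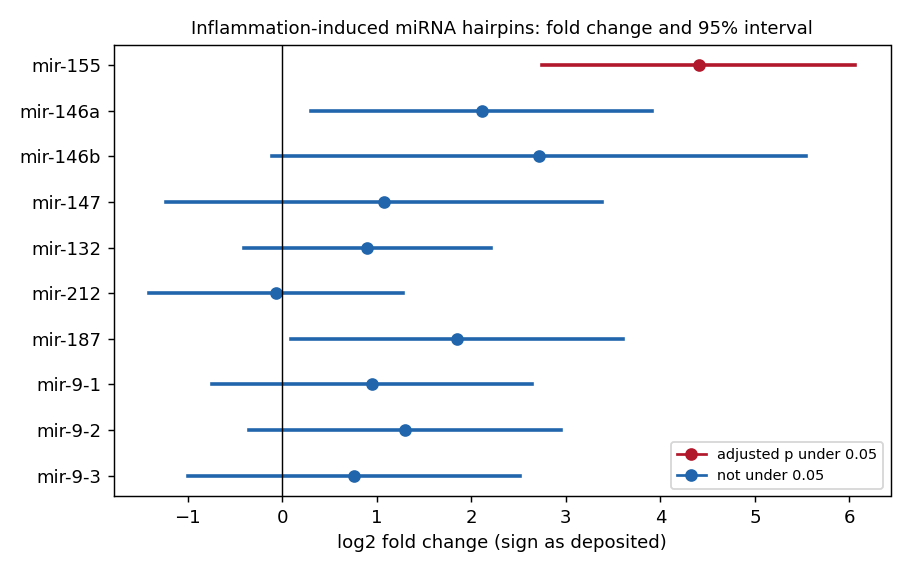
Log2 fold change with the sign as deposited (points) and its 95% interval (bars) for each of the 10 hairpins, red where the adjusted p is under 0.05. The interval of mir-155 starts at 2.75, those of mir-146a and mir-187 start just above 0, and the other 7 include 0.

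The hairpins mir-146a and mir-146b, of the feedback brake, had the next largest positive values of the set and did not pass the threshold. In the authors' deposited table mir-146a had a log2 fold change of 2.11 (p = 0.0244, adjusted p = 0.183). For mir-146b the authors' deposited table gives 2.72 (p = 0.0583, adjusted p = 0.303), a larger estimate with a weaker test. Their 95% intervals, from 0.31 to 3.92 for mir-146a and from −0.11 to 5.54 for mir-146b, overlap over the whole range of mir-146a.

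Both were among the most abundant hairpins of these vesicles by the mean over both groups, at rank 25 for mir-146a and rank 21 for mir-146b. Ranks within a group are unknown, since the table gives no group means. By the authors' deposited table, mean log2 expression was 11.99 for mir-146a and 12.39 for mir-146b. The 2 hairpins come from separate loci, mir-146a at chr11:43374397-43374461 on the minus strand, outside other annotated genes, and mir-146b at chr19:46342762-46342870 on the plus strand, in an intron of Mfsd13a. Whether their fold changes differ was not tested, since the table gives no value per library.

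The precision of mir-146b was low for its abundance. Its standard error of 1.34 was the 13th largest of the 180 most abundant hairpins, whose median was 0.76, while mir-146a stood at 0.86 and mir-155 at 0.79. Its interval accordingly spans values from near 0 to beyond the estimate of mir-155.

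**Figure D2:**
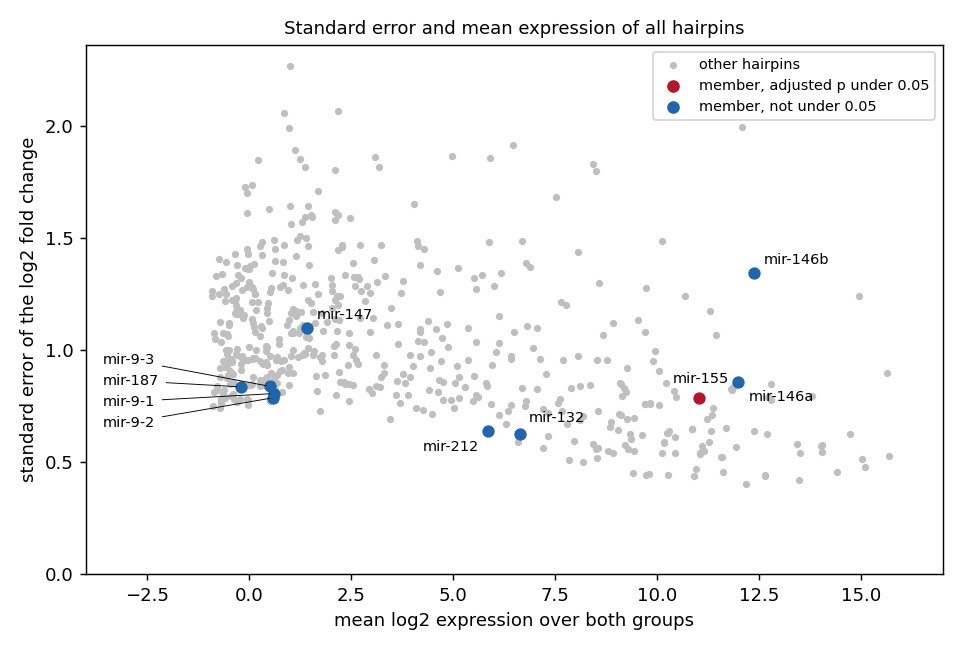
Standard error of the log2 fold change (vertical axis) against mean log2 expression over both groups (horizontal axis) for all 539 hairpins, with the 10 hairpins described here in colour. The point of mir-146b, at 1.34, lies well above mir-146a and mir-155, at 0.86 and 0.79.

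The clustered pair mir-132 and mir-212 showed no difference past the threshold. These miRNAs come from one primary transcript, which CREB as well as inflammatory signals can induce, and miR-132 is known to lower acetylcholinesterase. The hairpins lie 203 bases apart at chr11:75173388-75173478 for mir-212 and chr11:75173682-75173747 for mir-132, both on the plus strand, in an intron of 1700016P03Rik. In the authors' deposited table mir-132 was at 0.90 (adjusted p = 0.480) and mir-212 at −0.07 (adjusted p = 0.968), the only negative value of the 10. By the authors' deposited table, mean log2 expression was 6.64 for mir-132 and 5.85 for mir-212.

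This pair was the most precisely measured of the set, with standard errors of 0.62 for mir-132 and 0.64 for mir-212. The 95% interval of mir-132, from −0.41 to 2.21, reaches up to 4.63-fold on the positive side. The interval of mir-212 ran from −1.41 to 1.28, or from 0.376-fold to 2.43-fold, and ends below the lower bound of mir-155. The intervals of the pair share the range from −0.41 to 1.28, and whether the pair differs was not tested.

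The hairpin mir-147 had a positive fold change with a wide interval. Its miRNA is induced by Toll-like receptor ligands in mouse macrophages and is known to lower their cytokine output. It lies at chr2:122640803-122640881 on the plus strand, in an exon of AA467197. The authors' deposited table puts its log2 fold change at 1.08 (adjusted p = 0.657), with a 95% interval from −1.23 to 3.39. It was scarce in these vesicles, at rank 323, with a mean log2 expression of 1.42 in the authors' deposited table.

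The hairpin mir-187, whose miRNA is induced by interleukin-10 in human monocytes and lowers TNF there, was scarcer still. The authors' deposited table puts its mean log2 expression at −0.22, rank 469 of 539. For mir-187 the authors' deposited table gives a log2 fold change of 1.85 (limma, p = 0.0397, adjusted p = 0.251). The 95% interval ran from 0.10 to 3.61. GENCODE M21 places it on chromosome 18, bases 24429110 to 24429170 of the minus strand, outside other annotated genes.

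The copies of mir-9 were all positive and none passed. In human monocytes miR-9 is induced by lipopolysaccharide and binds the message of NFKB1, and in other tissues it marks neural cells. The authors' deposited table lists log2 fold changes of 0.95 for mir-9-1 (adjusted p = 0.584), 1.30 for mir-9-2 (adjusted p = 0.401) and 0.76 for mir-9-3 (adjusted p = 0.695). By the authors' deposited table, mean log2 expression was 0.59, 0.59 and 0.50 in the same order, at ranks 388, 389 and 396. Each of the 3 intervals includes 0, and the highest of their upper ends is 2.95.

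The 3 precursors are printed with both mature arms in capitals, because the arms are identical and only the flanks and loops can tell the copies apart.
mir-9-1: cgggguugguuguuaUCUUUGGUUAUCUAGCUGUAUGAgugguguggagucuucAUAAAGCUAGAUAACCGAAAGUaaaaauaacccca
mir-9-2: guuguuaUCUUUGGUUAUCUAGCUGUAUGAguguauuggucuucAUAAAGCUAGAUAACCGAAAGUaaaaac
mir-9-3: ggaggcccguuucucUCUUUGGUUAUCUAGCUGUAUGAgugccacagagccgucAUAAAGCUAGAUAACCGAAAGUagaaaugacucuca

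They lie at chr3:88215598-88215686 for mir-9-1, in an intron of Gm3764, at chr13:83738814-83738885 for mir-9-2, in an exon of C130071C03Rik, and at chr7:79505264-79505353 for mir-9-3, in an intron of Mir9-3hg, all on the plus strand. Reads of a mature miR-9 can belong to any of the 3, and the sources used here do not say how such reads were assigned, so the 3 values are no separate evidence. RefSeq also places entries named miR-9b on the opposite strand of each copy, and whether reads were counted by strand is likewise not given, so these low values are uncertain.

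**Figure D3:**
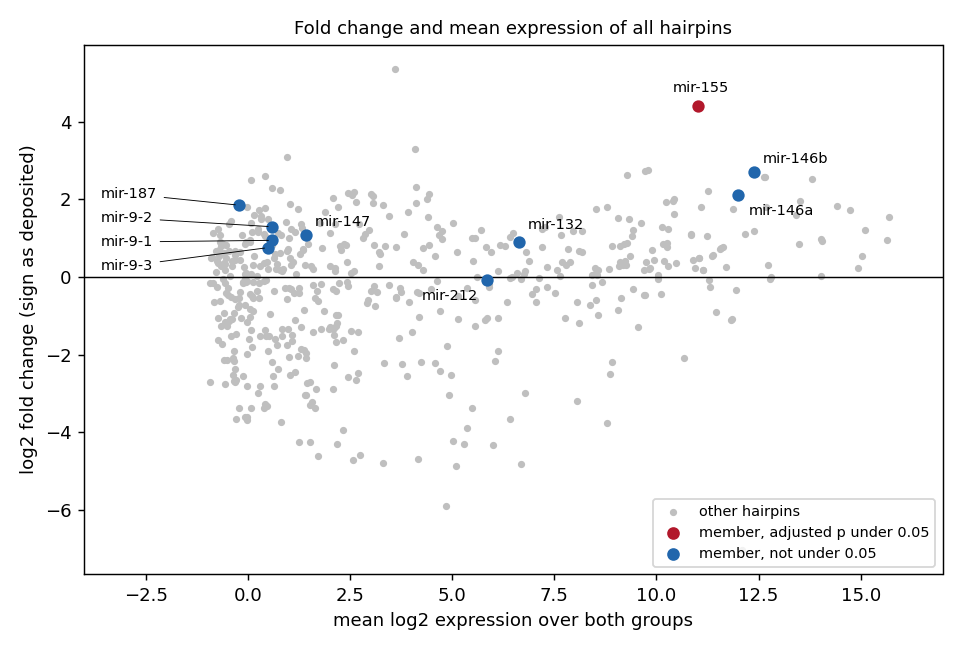
Log2 fold change with the sign as deposited (vertical axis) against mean log2 expression over both groups (horizontal axis) for all 539 hairpins, with the 10 described here in colour. Among abundant hairpins mir-155 is at the top at 4.41 with mir-146b and mir-146a below it at 2.72 and 2.11, while mir-187, mir-147 and the mir-9 copies lie at the low end of expression.

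Of the 10 hairpins, 9 had positive values, also after subtracting from each fold change 0.34, which is the median among the 180 most abundant hairpins, or 0.09, the median of all. The 3 mir-9 copies enter this count and the median below separately, though their values are no separate evidence. Of all 539 fold changes 52.7% were positive as deposited, and 67.8% among the 180 most abundant. After subtracting 0.34, 221 of the 539 were positive, and by construction 90 of the 180 most abundant. After subtracting 0.09, 269 of the 539 and 112 of the 180 were. The median log2 fold change was 1.19 for the 10, or 1.08 without mir-155, and 0.09 over all 539. At an unadjusted p under 0.05, 3 of the 10 passed, mir-155, mir-146a and mir-187, all positive, where 8.53% of all hairpins passed on that side. After recentring by 0.34, mir-155 was the 1 left. The unadjusted p, recomputed from limma's moderated t after the shift, was 0.0541 for mir-146a and 0.0870 for mir-187.

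Abundance split the set. Among the 180 most abundant hairpins were 5 of the 10, mir-155, mir-146a, mir-146b, mir-132 and mir-212, of which 1 was called, where 8.89% of that abundance class was called. The 179 least abundant hairpins held mir-187 and the mir-9 copies, and none of those 179 passed in the limma fit of the authors' deposited table, while 6 of them on the positive and 14 on the negative side had an unadjusted p under 0.05.

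Other miRNAs reported as induced by Toll-like receptor ligands or NF-κB in macrophages or monocytes were set beside the 10. The median log2 fold change of 11 such hairpins was 1.21, beside 0.34 for the 180 most abundant. Of the 11, 1 passed on the positive side and 1 on the negative side. Of all hairpins 5.57% passed in either direction, and 8.89% of the 180 most abundant. The positive one of the 11 was mir-222, whose miRNA lowers the cell cycle inhibitor Cdkn1b. The authors' deposited table puts it at 1.82 (adjusted p = 0.0240). The negative one was mir-365-2, which the authors' deposited table puts at −3.75 (adjusted p = 0.0266), and whose copy mir-365-1 was at 0.98. After recentring by 0.34, mir-365-2 was the 1 call left, and mir-222 had an adjusted p of 0.0704, recomputed from limma's t after the shift. Next by p in the authors' deposited table were mir-99b at 1.79 (adjusted p = 0.115), which shares a cluster with let-7e and mir-125a, and mir-221 at 1.72 (adjusted p = 0.123), the neighbour of mir-222. Positive values numbered 9 of 11, and 8 after recentring by 0.34. At an unadjusted p under 0.05 in limma, 6 of the 11 passed on the positive side and 1 on the negative side. On the positive side 8.53% of all hairpins did so, and 32 of the 180 most abundant.

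The second list held miRNAs reported to bind messages of the Toll-like receptor path, such as those of TLR4, MyD88 and TRAF6. The median of its 10 hairpins was 0.50, beside 0.34 for the 180 most abundant. Of the 10, 2 passed, both positive, where 2.04% of all hairpins and 9 of the 180 most abundant passed on that side. By the authors' deposited table they were mir-149, reported to bind the message of MyD88, at 3.31 (adjusted p = 0.0112), and let-7i, reported in human cells to bind that of TLR4, at 1.95 (adjusted p = 0.0383). Following these by p, the authors' deposited table has mir-30a at 1.18 (adjusted p = 0.350) and mir-199a-2 at 0.81 (adjusted p = 0.567). Positive values numbered 9 of 10, but 8 after recentring by 0.09 and 5 after recentring by 0.34. After either step mir-149 was the 1 call left. After the larger, let-7i had an adjusted p of 0.0977, recomputed from limma's t.

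Of the 6 hairpins reported as lowered by lipopolysaccharide in macrophages none passed in the limma fit, over all hairpins. Of all hairpins 5.57% passed, and 8.89% of the 180 most abundant, to which these 6 belong. Of the 6, 1 had an unadjusted p under 0.05, on the positive side, where 32 of the 180 most abundant did so. That was mir-27a, which the authors' deposited table puts at 1.80 (p = 0.00563, adjusted p = 0.0740). The authors' deposited table gives mir-223, a myeloid miRNA, at 1.54 (adjusted p = 0.307), mir-125b-2 at 0.45 (adjusted p = 0.630) and mir-125b-1 at 0.42 (adjusted p = 0.760). Positive values numbered 5 of 6, or 4 after recentring by 0.34, and the median was 0.44. Of the 180 most abundant hairpins 67.8% were positive, with a median of 0.34, and 90 of 180 after that recentring.

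**Figure D4:**
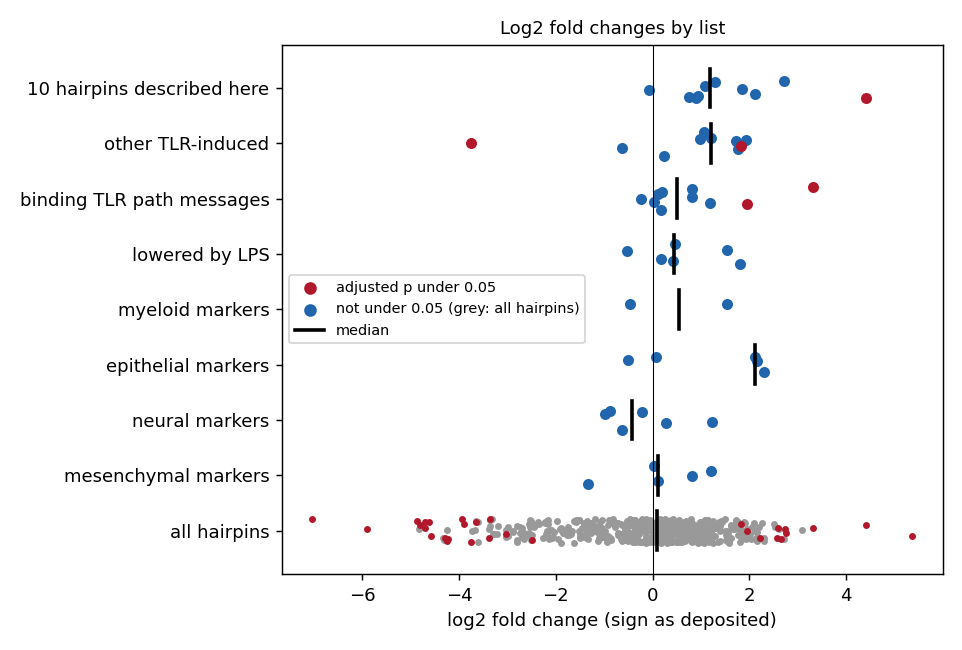
Log2 fold changes with the sign as deposited for the 10 hairpins, 3 lists of the same pathway, 4 lists of cell markers and all 539 hairpins (points, 1 per hairpin, red where the adjusted p is under 0.05), with the median of each as a black bar (TLR, Toll-like receptor; LPS, lipopolysaccharide). The median of the 10 hairpins is 1.19, that of the other induced miRNAs 1.21, that of the epithelial markers 2.11 and that of all hairpins 0.09.

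Markers of cell types were read beside the set. The myeloid hairpins mir-142a and mir-223 were well represented, with a mean log2 expression of 9.70 and 7.62 in the authors' deposited table, and log2 fold changes of −0.46 (adjusted p = 0.833) and 1.54. The 5 epithelial markers of the list, all of the miR-200 family, had 4 positive values with a median of 2.11, or 3 after either recentring. Of all 539 fold changes 52.7% were positive. In the authors' deposited table the 5 were mir-429 at 2.30, mir-200b at 2.17, mir-200c at 2.11, mir-200a at 0.07 and mir-141 at −0.51. None was under an adjusted p of 0.05 in the limma fit. An unadjusted p under 0.05 was found for 3, all positive, where 8.53% of all hairpins passed on that side. The mean log2 expression of the 5 ran from 0.60 to 3.62 in the authors' deposited table, far under that of mir-155 and near that of mir-147 and the mir-9 copies. Outside the list, the epithelial mir-203 was at 0.82 and mir-205 at −1.80 in the authors' deposited table, neither called. The part of epithelial markers in the values of the set was not tested.

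Beside mir-9, a list of 9 neural markers had 6 hairpins in the table, and the mir-124 copies had no row there. Of these 6, 2 were positive, or 1 after recentring by 0.34, with a median of −0.42. In the authors' deposited table they were mir-128-2 at 1.23 (adjusted p = 0.258), mir-128-1 at −0.21, mir-138-1 at −0.87, mir-138-2 at −0.99, mir-219a-1 at −0.63 and mir-219a-2 at 0.28. By unadjusted p mir-128-2 alone of the 6 was under 0.05. None of the remaining markers passed in the limma fit, and none had an unadjusted p under 0.05. In the authors' deposited table the lymphocyte mir-150 was at 0.59, the endothelial mir-126a at 0.01, the erythrocyte mir-451a and mir-486a at 0.09 and −1.09, and the adipocyte mir-193b, mir-335 and mir-365-1 at −0.56, 0.60 and 0.98. The other copy of miR-365, mir-365-2, was not in the adipocyte list and is the hairpin called on the negative side among the induced miRNAs above. Mesenchymal markers in the authors' deposited table were mir-143 at 1.21, mir-145a at 0.02, mir-199a-1 at 0.11, mir-199a-2 at 0.81 and mir-214 at −1.33. Among these, recentring by 0.34 turned mir-126a, mir-451a, mir-145a and mir-199a-1 negative, along with mir-200a and mir-219a-2.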

How the data were processed

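Small RNA from exosomes was sequenced in 7 obese and 7 lean libraries, and the authors deposited 1 table of their comparison, with 0 columns of values per library. Tools named in the submitters' processing notes, without roles, are FastQC, MultiQC, Trimmomatic 0.30, Novoalign, edgeR and limma, and the sources used here do not give the build, miRNA annotation, filters, scaling or handling of shared reads. Per the file headers, the log2 columns are a fold change and a mean expression. Also per the file headers, t is a score (limma's moderated t), the p-value columns hold raw and adjusted values, and B is a natural log of odds.

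The design of the tests allowed for values per library, and since there were none no model was fitted here. A Benjamini-Hochberg adjustment of the raw p over 539 rows gave the deposited adjusted p to within 1.46e-14, and hairpins under 0.05 are called. Each standard error is the ratio of log2 fold change to t. The 95% intervals rest on the 17.9 degrees of freedom recovered from t and p. The arithmetic of this step was tested on simulated data drawn with the same degrees of freedom and standard errors. That test cannot show whether the intervals suit these libraries. B did not follow the absolute t in 239 neighbouring pairs of rows, which in limma happens with unequal weights, so group means were not rebuilt from fold change and mean. Depth is unknown, so no counting interval is given.

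The hairpins, the 3 pathway lists and the 8 marker lists were chosen with earlier results of these data known. Copies of the same miRNA, such as mir-16-1 and mir-16-2, were counted separately in them. Named are all members, the 4 list rows of smallest p, 2 rows on each side of a called member in mean expression, and the markers. The hairpins mir-1945, mir-511, mir-203, mir-205 and mir-9b were added after their values or places were seen. The planned marker mir-365-1 was set beside mir-365-2 in the same way. Sequences are from RefSeq and positions from GENCODE M21 (GRCm38), matched by symbol. Work used Python 3.11.15, pandas 2.3.3 and SciPy 1.17.1. The alternatives changed the centring, filter, copies, threshold or adjustment. Recentring subtracts a constant from each fold change and recomputes t and p with the same standard error and degrees of freedom.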

Additional observations from a re-analysis of the deposited data

How the results depend on the processing

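The call of mir-155, and the absence of a call for the other 9 hairpins wherever they had a value, were the same under each of 7 other settings. These were recentring on the 180 most abundant hairpins or on all, leaving out the 179 least abundant, 1 hairpin per stem, an adjusted p under 0.1, a 2-fold minimum and Holm adjustment. Across them mir-155 had log2 fold changes from 4.07 to 4.41 and adjusted p-values, based on limma's t or p, between 0.00137 and 0.0142. For mir-146a the fold changes ran from 1.77 to 2.11, and the lowest adjusted p, re-adjusted from limma's p, was 0.152. For mir-146b they ran from 2.38 to 2.72, with a lowest adjusted p of 0.266 by the same step. No sign turned, with mir-212 between −0.41 and −0.07, and only recentring could change a fold change. Some outcomes were fixed in advance by the deposited values. The looser threshold and the 2-fold minimum could not lose mir-155, and that minimum and Holm adjustment could not add a call. The count of hairpins with an unadjusted p under 0.05 was 3 as deposited, 2 without the least abundant (mir-187 is then left out) and 1 after recentring by 0.34. Leaving out the least abundant left mir-187 and the mir-9 copies with no value, and 1 hairpin per stem kept mir-9-1 alone of the copies. No paired analysis was possible because only a comparison of the groups was given, and for the same reason no library could be left out in turn. What depth and a single library do to these values was not tested.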
